A study of Mus musculus with 6 samples.

Results

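Cartpt and 9 other genes that encode neuropeptide precursors were followed in sorted medullary thymic epithelial cells (mTECs) of Mbd1 knockout (KO) and Mbd1 wild type (WT) mice. The genes were taken by symbol, with every probe of the authors' array matrix counted. This gave 15 probes of 10 genes, out of 41174 probes and 21651 named genes in all. Cartpt had 2 probes, Tac1 3, Penk 2 and Calca 2, and Npy, Pomc, Pdyn, Vip, Gal and Calcb had 1 each. Cartpt was chosen by its measured difference between the KO and WT columns of the matrix, so its values in that contrast are a description and not a test, and the other 9 genes were listed beside it with the same contrast known.

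The mTECs were sorted from mice 30 days old, as DAPI-negative cells that stained for EpCAM and class II but not for CD45, CD11c or Ly51. Amplified, Cy3-labelled RNA was hybridised to 1-colour Agilent arrays, with 3 KO and 3 WT arrays. Of 4 biological replicates made per genotype, the authors removed 1 each after quality control. The deleted part of Mbd1, the strain and the sex of the mice are not given in the sources used here. They also do not say how many mice gave each replicate, so whether the spread between arrays is that between single mice is not known.

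Neuropeptides are made as larger precursor proteins, which prohormone convertases cut into active peptides inside secretory granules of neurons and endocrine cells. mTECs transcribe many genes of other organs, and peptides from these proteins are shown to developing T cells, so that T cells reacting to them are removed or turned into regulatory cells. Mbd1 recognises CpG sites once they are methylated and is known as a transcriptional repressor and a partner of Aire, the regulator that drives much of this transcription.

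Mbd1 itself was low in all 3 KO columns. Its probe A_51_P143224 read 5.64, 5.61 and 5.60 in columns KO 1 to 3 and 8.83, 8.60 and 9.00 in columns WT 1 to 3, on the log2 scale of the matrix. The difference of KO minus WT was -3.19 at this probe and -2.96 at probe A_52_P158923. At probe A_52_P131423, dimmer in the WT columns (6.75, 6.59 and 6.34), it was -0.98 and did not pass the test described below (limma, adjusted p = 0.125). The highest signals of probes never detected (their 95th percentile) lay between 5.50 and 5.67 across the columns, so Mbd1 was at or near background in the KO columns. The names of the matrix columns and the titles of the scanner files did not match. Of 6 columns, 5 matched 1 scanner array exactly in the rank order of probes. In 0 of these 5 cases did name and title match, and in 4 the genotypes were opposite. Column KO 1 equalled no array, and the array titled KO 2 equalled no column. Every direction below is by column name unless a title is named.

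Transcripts of the labelled cell type were detected throughout. All 15 mTEC markers, among them Epcam, Krt5, Krt14, Aire, Cd80 and H2-Aa, passed the detection filter. Their column medians were 12.7 in each KO column and 12.9 to 13.1 in the WT columns. Gene by gene, their median difference of KO minus WT was -0.02, with 7 positive and 8 negative. Of 15 neuron and neuroendocrine markers 14 passed the filter, Neurod1 being the exception. Their median difference was 0.07, with 0 passing the test described below. Of the thymocyte and T cell markers, 10 of 11 measured had a positive difference, and Rag2 was below the filter. Their column medians were 8.93, 8.94 and 9.03 in the KO columns and 8.02, 8.55 and 8.57 in the WT columns. Their median difference was 0.47, the largest being Cd8b1 (0.97) and Dntt (0.91), and 0 of 11 passed. At an unadjusted p of 0.05 there were 5 of 11, all higher, where 3.96% of all probes were under it in either direction. The KO and WT columns did not overlap for 6 of 11, all higher in KO, against 4.07% of all probes as higher. The 7 myeloid and dendritic cell markers had a median difference of 0.36 (2 of 7 at an unadjusted p of 0.05, both higher) and column medians of 9.51 to 9.97 in KO and 8.68 to 9.60 in WT. Cortical epithelial markers had a median of 0.39 (1 of 5), B cell markers without immunoglobulin one of 0.17 (0 of 7) and endothelial and fibroblast markers one of 0.11 (0 of 7). Of these 4 lists 0 genes passed. The sort was set against CD45 and CD11c, and no share of other cells was measured. The part of these transcripts in the values of Cartpt was not tested.

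The promoters of Cartpt and Npy are shown because they hold the most CpG sites, the sequence that Mbd1 binds when methylated, among the precursor promoters matched. Each line gives the 250 bases before the transcription start in RefSeq on build GRCm38.p6, 5′ to 3′ along the gene, with each CpG in capitals. Cartpt lies on the minus strand (chr13:99900684-99900933) and Npy on the plus strand (chr6:49822460-49822709).
Cartpt: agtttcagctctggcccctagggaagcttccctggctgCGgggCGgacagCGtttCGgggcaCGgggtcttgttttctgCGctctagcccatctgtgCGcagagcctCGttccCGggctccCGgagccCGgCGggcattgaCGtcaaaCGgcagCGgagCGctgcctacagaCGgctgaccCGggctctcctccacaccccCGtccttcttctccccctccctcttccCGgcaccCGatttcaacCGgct
Npy: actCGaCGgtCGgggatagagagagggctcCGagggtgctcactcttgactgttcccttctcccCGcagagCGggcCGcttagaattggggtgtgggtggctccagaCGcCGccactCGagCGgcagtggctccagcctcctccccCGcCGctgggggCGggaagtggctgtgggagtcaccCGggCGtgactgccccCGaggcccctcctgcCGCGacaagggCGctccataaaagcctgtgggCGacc
The third line is part of the Cartpt stretch (chr13:99900778-99900805), with a full cyclic AMP response element in capitals, the palindrome TGACGTCA that proteins of the CREB family bind.
Cartpt element: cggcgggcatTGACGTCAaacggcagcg

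Cartpt had 22 CpG sites in this window and Npy 21. Across 32851 RefSeq promoters the median was 6 sites (quartiles 2 and 16), and 85.2% held fewer than Cartpt. Among the other precursors the count was 17 for Tac1, 15 for Pomc, 11 for Gal, 8 and 4 for the 2 starts of Pdyn, 4 for Calca and 3 for Vip. The 9 promoters cover 8 of the 10 genes; Penk and Calcb were not matched. The element TGACGTCA began 112 bases before the Cartpt start. It stood in 1 of the 9 precursor promoters and in 1.55% of all promoters (searched on both strands, which read the same). Its first 5 letters, TGACG on either strand, stood in the promoters of 4 genes (Cartpt, Tac1, Vip and Calca) and in 17.8% of all promoters. These matches describe the letters of the windows, and no methylation or binding was measured here.

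**Figure D1:**
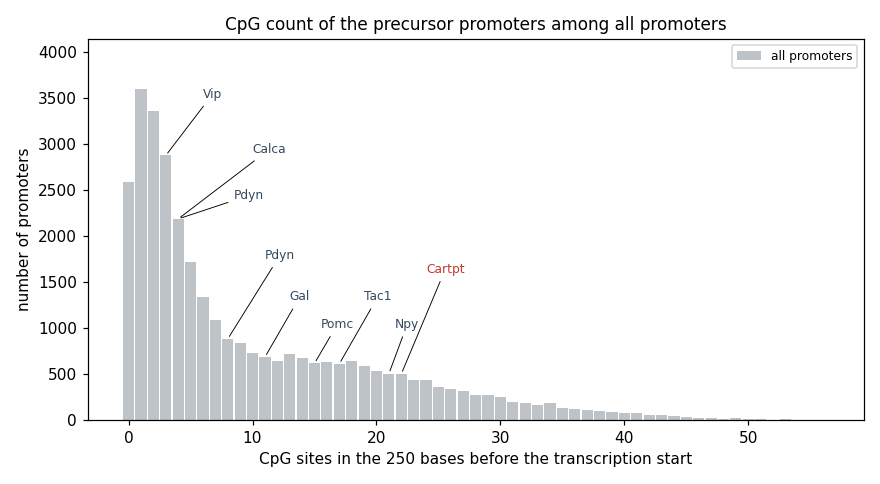
Number of promoters (y axis) by CpG sites in the 250 bases before the transcription start (x axis), for all 32851 RefSeq promoters in grey bars, with the precursor promoters named. Cartpt (22) and Npy (21) stand side by side in the upper part, and Vip (3), Calca (4) and 1 start of Pdyn (4) below the median of 6.

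Cartpt, the precursor of the CART peptides that lower appetite in the hypothalamus and are also made by gut neurons and islets, was higher in every KO column than in any WT column. Probe A_52_P208649 read 10.03, 10.11 and 10.21 in columns KO 1 to 3, against 8.60, 8.57 and 8.87 in columns WT 1 to 3. The KO columns thus lay within a range of 0.2 of each other, and the lowest of them was more than 1 log2 unit above the highest WT column. The means were 10.1 ± 0.09 in KO and 8.68 ± 0.16 in WT (SD, n = 3 each). The difference was 1.44 (SE 0.19, 95% interval 1.02 to 1.85), a 2.71-fold higher level. In bulk RNA of this kind, more cells that make Cartpt and more RNA per cell cannot be told apart.

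The other Cartpt probe, A_51_P416152, read 9.87, 10.13 and 10.14 in KO columns 1 to 3, against 8.47, 8.43 and 8.66 in WT columns 1 to 3. Its difference was 1.53 (SE 0.19), or 2.88-fold. Both probes span a stretch of 990 bases, longer than an array oligonucleotide, so each crosses a splice junction. Their starts lie 10 bases apart, and so do their ends. They therefore share most of their sequence and count as 1 measurement of the transcript.

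Cartpt was picked for passing limma's test over all probes, and that call depended on which columns were used. It ended without column WT 2 (adjusted p = 0.0981 and 0.0690 for probes A_52_P208649 and A_51_P416152), at differences of 1.38 and 1.48. It also ended with the array slide as a block over the 5 columns of known slide (adjusted p = 0.335 and 0.262), at differences of 1.56 and 1.66. By construction, these 2 differences are those within the slide that held columns of both genotypes, KO 2 and KO 3 against WT 1. Columns WT 2 and WT 3 lay on the other slide, with no known KO column, and the slide of KO 1 is unknown. Genotype and slide were thus in part confounded in the main fit, for every gene. The size of the Cartpt difference therefore stood between 1.38 and 1.56 at probe A_52_P208649 over these settings. In all, 2 of the 14 precursor probes in the test passed, both of Cartpt, where 0.177% of all 32235 probes did (0.164% as higher and 0.0124% as lower). The columns did not overlap at the same 2 of 14 probes, where 8.14% of all probes did not overlap. Since the contrast chose Cartpt, nothing is read from that count.

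**Figure D2:**
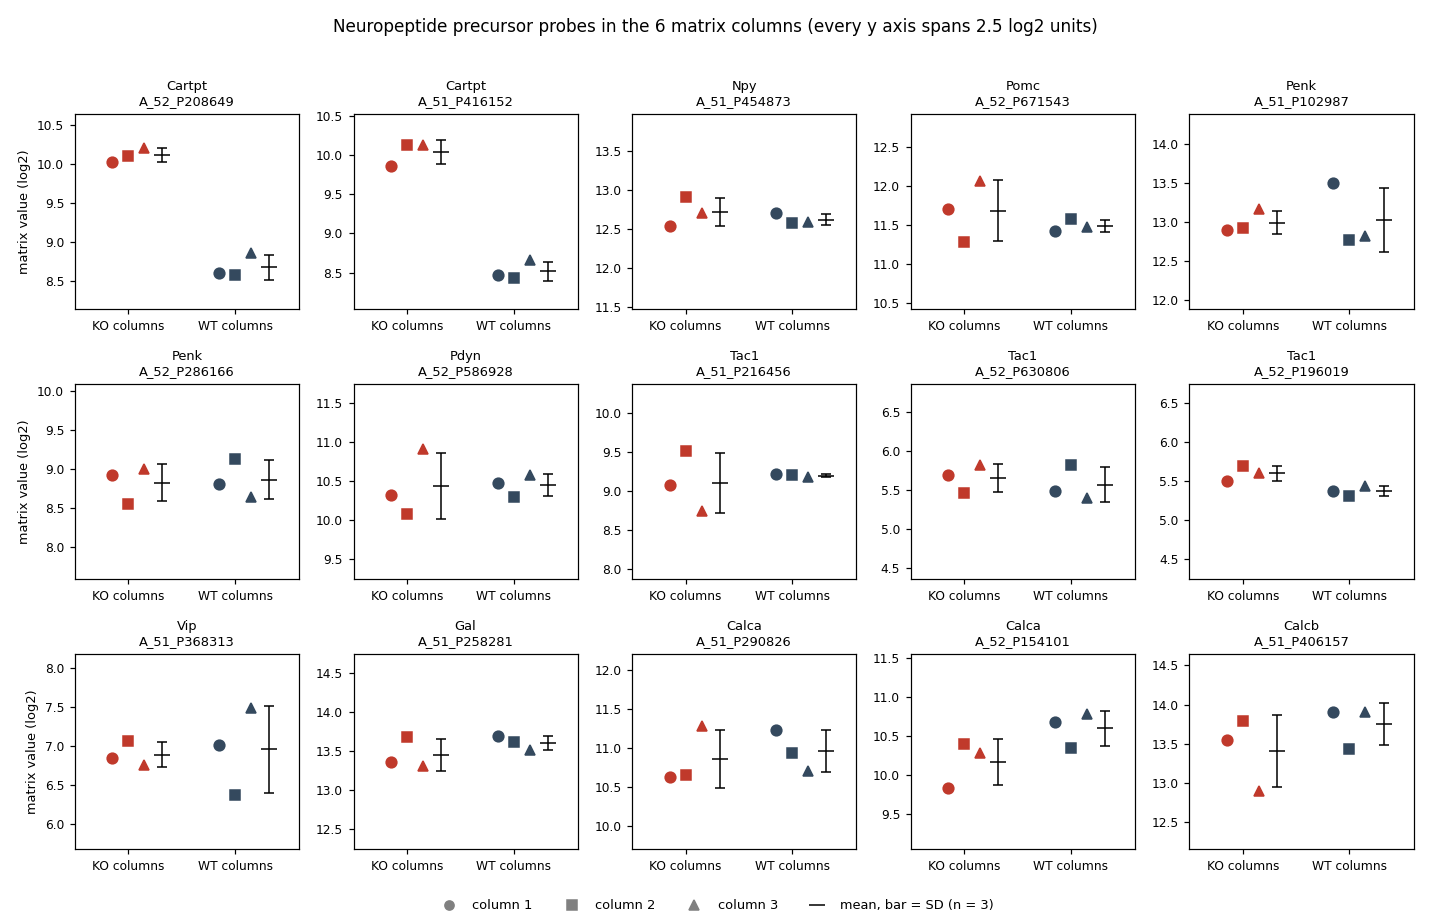
Matrix value (log2, y axis) of each of the 15 precursor probes in the 3 KO columns (red) and the 3 WT columns (dark), with the mean and SD of each group in black and every panel spanning the same log2 range. At the 2 Cartpt probes all KO columns (9.87 to 10.21) lie above all WT columns (8.43 to 8.87), while at the other well detected probes the groups overlap.

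The scanner arrays, read 1 by 1, held an array that no column of the matrix contains. On that array, titled KO 2, Cartpt had a processed intensity of 1638 and Mbd1 one of 17.2 (probes A_52_P208649 and A_51_P143224). On the arrays equal to columns KO 2 and KO 3, Cartpt had 1550 and 1373 and Mbd1 20.9 and 15.6. On the arrays equal to columns WT 1, WT 2 and WT 3, Cartpt had 296.5, 374.6 and 730.2 and Mbd1 304.8, 356.0 and 682.3. The 3 arrays brightest for Cartpt were thus the 3 dimmest for Mbd1, the array outside the matrix among them. All the other arrays equal columns on which Cartpt was chosen, so their order restates that choice. Only the array titled KO 2 lies outside it.

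After scaling each array to its 75th percentile, Cartpt stood at 1.82 on the array titled KO 2 (log2). It stood at 1.57 and 1.70 on the arrays equal to KO columns and between -0.09 and 0.34 on those equal to WT columns. Under the titles of the scanner files the groups overlapped and the sign turned: the difference of titled KO minus titled WT was -0.37 (SE 0.63). Each titled group held arrays of low and of high Mbd1. Mbd1 was 20.9 and 15.6 on the arrays titled WT 1 and WT 3, and 304.8 on WT 2. It was 356.0 and 682.3 on the arrays titled KO 1 and KO 3, and 17.2 on KO 2.

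**Figure D3:**
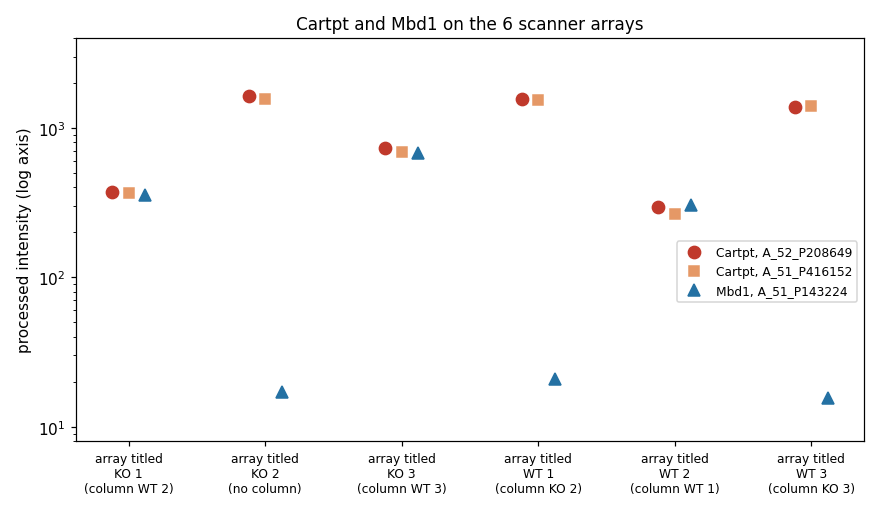
Processed intensity (log axis) of the 2 Cartpt probes (red and orange) and of Mbd1 (blue) on the 6 scanner arrays, ordered by title, with the equal matrix column in brackets. The 3 arrays with Cartpt at 1373 to 1638 (probe A_52_P208649) have Mbd1 at 15.6 to 20.9, and the other 3, with Cartpt at 296.5 to 730.2, have Mbd1 at 304.8 to 682.3. All but the array titled KO 2 equal columns on which Cartpt was chosen.

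The other 9 precursor genes each had a probe above background in these cells, though the match of the Vip probe was not tested. These genes showed no gap of the kind seen for Cartpt. Their 12 probes in the test had differences between -0.43 and 0.19, with a median of -0.05, and 3 were positive and 9 negative; over all 32235 probes the median was -0.01 and 48.2% were positive. With limma 0 of the 12 passed, and 0 had an unadjusted p under 0.05, against 3.96% of all probes. None of the 12 had KO and WT columns that did not overlap, against 8.14% of all probes in either direction. All 12 intervals held 0. They reached from -0.91 to 0.69 at most, so a change of up to that size at a single probe is not shut out by 3 columns per group.

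Npy, which encodes the appetite-stimulating neuropeptide Y of hypothalamic and sympathetic neurons, was even between the groups. It read 12.55, 12.91 and 12.71 in KO columns 1 to 3 and 12.70, 12.58 and 12.59 in WT columns 1 to 3. The difference was 0.10 (SE 0.19, 95% interval -0.32 to 0.51), and column KO 1 was the lowest of the 6. On 3 of the 6 scanner arrays the Npy spot was an outlier, although the matrix gives a value in each column.

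Pomc, the precursor of ACTH, the melanocortins and beta-endorphin, read 11.71, 11.28 and 12.07 in KO columns 1 to 3, against 11.43, 11.57 and 11.48 in WT columns 1 to 3. The KO columns held both the highest and the lowest value, with an SD of 0.39 in KO and 0.07 in WT. The difference was 0.19 (SE 0.22), the largest positive one among the 12 probes. It was 0.40 without column KO 2 and 0.0046 without column KO 3. The Pomc spot was an outlier on 2 of the 6 scanner arrays, among them the array equal to column KO 2, the lowest.

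Of the opioid precursors, Penk, the source of the enkephalins, was measured at a pair of probes 723 bases apart. Probe A_51_P102987 read 12.89, 12.92 and 13.16 in KO columns 1 to 3 and 13.50, 12.77 and 12.82 in WT columns 1 to 3. Column WT 1 was the highest, and the difference was -0.04 (SE 0.23). Within the slide that held columns of both genotypes, where WT 1 is the WT column, it was -0.46. Probe A_52_P286166 read 8.92, 8.55 and 9.00 in KO columns 1 to 3 and 8.81, 9.13 and 8.65 in WT columns 1 to 3, and also differed by -0.04 (SE 0.21).

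Pdyn, the source of the dynorphins, which act on the kappa opioid receptor, read 10.32, 10.09 and 10.91 in KO columns 1 to 3 and 10.47, 10.29 and 10.58 in WT columns 1 to 3. Column KO 3 was the highest and KO 2 the lowest. The difference was -0.01 (SE 0.24, 95% interval -0.53 to 0.51).

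Tac1, the precursor of substance P and neurokinin A, was steady in WT and spread in KO. Probe A_51_P216456, which crosses a splice junction, read 9.07, 9.50 and 8.74 in KO columns 1 to 3, against 9.21, 9.20 and 9.17 in WT columns 1 to 3. The SD was 0.38 in KO and 0.02 in WT, and the difference -0.09 (SE 0.22). The other Tac1 probes begin 6256 and 7747 bases further along the strand, under another transcript entry. They were at background in 3 and 5 of the 6 columns, so no fold is given for them. Probe A_52_P196019, well above background on 2 of the 6 arrays, was the precursor probe that did not enter the test. It read 5.49, 5.68 and 5.60 in KO columns 1 to 3 and 5.37, 5.30 and 5.43 in WT columns 1 to 3.

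Vip, a peptide that relaxes smooth muscle and widens vessels, read 6.85, 7.07 and 6.76 in KO columns 1 to 3 and 7.02, 6.38 and 7.49 in WT columns 1 to 3. The WT columns held the highest and the lowest value, and the difference was -0.07 (SE 0.27). The array's coordinates place this probe on the minus strand, while the Vip promoter lies on the plus strand. Its match to the Vip transcript was not tested. Gal, the precursor of galanin, a peptide of gut and hypothalamic neurons, read 13.36, 13.68 and 13.30 in KO columns 1 to 3 and 13.69, 13.61 and 13.51 in WT columns 1 to 3. Its groups overlapped through column KO 2 alone. The difference was -0.16 (SE 0.19, 95% interval -0.58 to 0.27).

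The calcitonin genes Calca and Calcb lie together on chromosome 7. Calca gives calcitonin or, by alternative splicing, the alpha form of CGRP, a vasodilator of sensory nerves, and Calcb gives the beta form of CGRP. The 2 Calca probes lie 1628 bases apart under different transcript entries. Probe A_52_P154101, the one further along the gene, read 9.84, 10.40 and 10.28 in KO columns 1 to 3, against 10.68, 10.35 and 10.78 in WT columns 1 to 3. Its groups overlapped by 1 column of each, KO 2 and WT 2. The difference of -0.43 (SE 0.22, 95% interval -0.91 to 0.05) was the most negative of the 12. It was -0.26 without column KO 1, the lowest, and -0.56 without column WT 2.

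At the other Calca probe, A_51_P290826, the values were 10.64, 10.65 and 11.29 in KO columns 1 to 3 and 11.24, 10.95 and 10.71 in WT columns 1 to 3. The difference there was -0.10 (SE 0.24), with the highest value in column KO 3. Calcb read 13.54, 13.78 and 12.89 in KO columns 1 to 3, against 13.91, 13.43 and 13.91 in WT columns 1 to 3, a difference of -0.35 (SE 0.26, 95% interval -0.91 to 0.22). It was -0.09 without column KO 3, which was the lowest, -0.54 without KO 2, -0.50 without WT 2 and -0.57 once slide was fitted as a block. The Calcb spot was an outlier on 3 of the 6 scanner arrays, and that of Calca probe A_51_P290826 on 2.

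No single column stood behind the scatter of the 9 genes. Over the 12 probes, the highest value lay in columns KO 1 to KO 3 for 0, 2 and 3 probes and in columns WT 1 to WT 3 for 3, 2 and 2. The lowest value lay in KO 1 to KO 3 for 3 probes each, and in WT 1 to WT 3 for 0, 2 and 1.

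**Figure D4:**
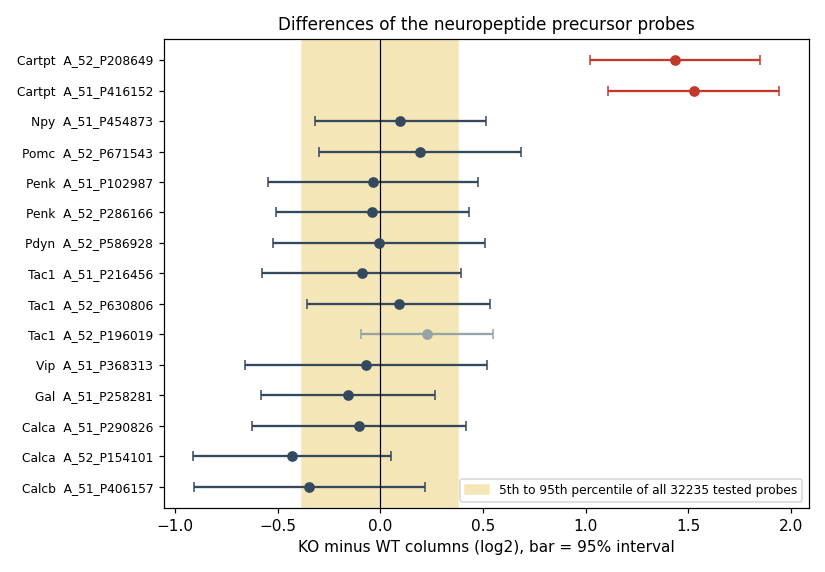
Difference of KO minus WT columns (log2, x axis) with its 95% interval for each precursor probe, against the 5th to 95th percentile of all 32235 tested probes (-0.38 to 0.38, band). The 2 Cartpt probes (red, 1.44 and 1.53) lie outside the band, all others but Calca probe A_52_P154101 (-0.43) inside it, and the grey Tac1 probe comes from the fit of all probes.

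Further neuropeptide precursors gave 0 passing genes. Of 35 listed, 29 were on the array and 28 in the test, with Ucn2 below the filter. The list's median difference was -0.07, with 8 positive and 20 negative, and 0 genes had an unadjusted p under 0.05. The 4 of smallest p were Npb (neuropeptide B, -0.36), Nts (neurotensin, a gut and brain peptide, -0.37), Adcyap1 (PACAP, a relative of VIP, -0.32) and Ucn3 (a relative of corticotropin-releasing hormone, 0.32). Their adjusted p was 0.9995 each. The columns of KO and WT did not overlap for 2 of the 28, both lower in KO, where 8.14% of all probes did not overlap in either direction and 4.07% as lower.

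Of 19 measured genes that cut, trim or store neuropeptide precursors, 0 passed; Qpct was below the filter. The median difference was -0.09, with 5 positive and 14 negative, and 2 of 19 were lower at an unadjusted p of 0.05, where 3.96% of all probes were under it in either direction. Chgb, chromogranin B of the secretory granule, read 9.10, 8.13 and 9.23 in KO columns 1 to 3, against 9.81, 9.29 and 9.48 in WT columns 1 to 3, a difference of -0.71 (SE 0.29, adjusted p = 0.9995). Pcsk5, a convertase of the furin family, differed by -0.65 (SE 0.23, adjusted p = 0.940), and its 3 other probes by -0.32 to -0.47.

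Pcsk1 and Pcsk2 are the convertases of neurons and endocrine cells. Pcsk1 differed by -0.54 (SE 0.29), with -0.60 at its other probe, and its values were 7.10, 7.93 and 6.65 in KO columns 1 to 3 and 7.84, 7.80 and 7.64 in WT columns 1 to 3. Column KO 2 was thus the highest of the 6. Pcsk2 read 8.97, 8.73 and 9.00 in KO columns 1 to 3, against 9.37, 9.29 and 9.25 in WT columns 1 to 3, a difference of -0.41 (SE 0.19, adjusted p = 0.9995) without overlap. In this list the groups did not overlap for 3 of 19 genes, all lower in KO, where 8.14% of all probes did not overlap in either direction and 4.07% as lower.

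Receptors of the peptide families of these precursors gave 0 passing genes of 23 measured, with 13 positive and 10 negative and a median of 0.02. The list held no receptor for the CART peptides. The other 5 of the 28 listed (Npy1r, Npy2r, Npy4r, Galr1 and Oprd1) were below the filter. Tacr2, the receptor for neurokinin A, had the smallest p of this list. It read 7.78, 7.85 and 8.30 in KO columns 1 to 3, against 7.10, 7.07 and 7.45 in WT columns 1 to 3, a difference of 0.77 (SE 0.21, adjusted p = 0.505). It was the 1 gene of 23 with an unadjusted p under 0.05, a share near the 3.96% of all probes. The columns did not overlap for 3 of 23 receptors, 2 higher and 1 lower in KO, against 8.14% of all probes. Ramp3, which pairs with the calcitonin receptor family, differed by 0.42 (SE 0.20), and Calcr, the calcitonin receptor, by -0.55 (SE 0.26), with -0.56 at its other probe. Oprk1, the dynorphin receptor, differed by -0.45 (SE 0.22).

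**Figure D5:**
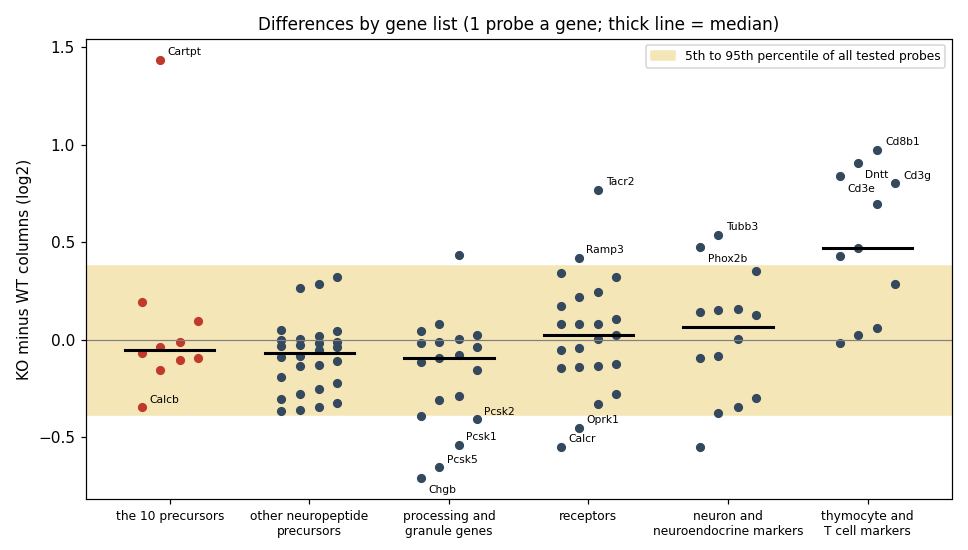
Difference of KO minus WT columns (log2, y axis) for each gene of 6 lists, with 1 probe a gene, the list median as a thick line and the 5th to 95th percentile of all tested probes as a band. Cartpt (1.44) is the highest of the 10 precursors, the processing genes Chgb (-0.71) and Pcsk5 (-0.65) lie lowest of those labelled, and the T cell markers have a median of 0.47.

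Likeness to the Cartpt profile was measured by the root mean square difference of centred log2 values over the 6 columns, among 18561 genes. The 5 nearest genes were taken, skipping names of clones, accessions and predicted genes. They were Cbln4, a secreted protein of synapses (root mean square difference 0.22), Echdc2, a mitochondrial protein of the enoyl-CoA hydratase family (0.22), Dhrs7c, a dehydrogenase of muscle (0.24), Ppat, the first enzyme of purine synthesis (0.25), and Degs1, the desaturase that makes ceramide (0.25). Cbln4 read 9.26, 9.24 and 9.14 in KO columns 1 to 3, against 7.91, 8.22 and 8.27 in WT columns 1 to 3. The differences of KO minus WT were 1.08 for Cbln4, 1.20 for Echdc2, 1.10 for Dhrs7c, 1.11 for Ppat and 1.25 for Degs1. They follow from the choice by likeness and carry no test. A second Ppat probe differed by 0.97, while a second Dhrs7c probe differed by -0.28.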

How the data were processed

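Scanner files came from Agilent Feature Extraction, version 10.7.3.1 by the file headers; the submitters' processing notes name 10.6. Their processed intensity had its background subtracted and a spatial trend removed, per the file headers. The authors' deposited matrix held log2 values in 6 columns. Of these, 5 ranked probes as the raw median spot intensity does, with no background removed, which compresses the folds of dim genes. Its medians were nearly equal (7.13 to 7.14), and the tool is not given in the sources used here. Its log2 ratio, linear fold, p-values and score, computed by the authors, were not used.

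The matrix columns, grouped by name, were fitted in R 4.3.3 with limma 3.58.1 (lmFit, then eBayes) and a genotype term. All 32235 probes well above background on at least 3 of 6 arrays, over spots not called outliers, were tested, with Benjamini-Hochberg adjustment (threshold 0.05). Each array had 72.6% to 79.4% of probes well above background, and none was saturated; the number of arrays limits the precision. Lists count the kept probe of highest mean per gene. Probes were named through Entrez ID (33380), accession (53) or the file's symbol (2201). The members, lists and tests were chosen with earlier results of these data known. Named genes were Mbd1, the 10 precursors, up to 4 genes of smallest p per list with any that passed, and the 5 nearest profiles to Cartpt; of the marker lists, genes moving with Cartpt were named by rule, and mTEC markers and markers below the filter outside it, with their values seen. The fit was tested on simulated data. Alternatives changed the filter, the probe choice, the moderation, the replicate or slide block, the source of values and each column left out.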

Additional observations from a re-analysis of the deposited data

Results flagged for a closer look

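Cartpt on the array titled KO 2 stood out in data that the comparison of matrix columns does not use, since that array equals no column. After scaling to the array's 75th percentile it stood at 1.82 (log2, probe A_52_P208649), above the -0.09 to 0.34 on the arrays equal to WT columns, and at 1.76 on the overlapping probe A_51_P416152, against -0.23 to 0.26. This is 1 array, and no test was made. It had the most spots left out as outliers, 1306 against 397 to 1173 on the other arrays. Its rank correlation with each matrix column (0.952 to 0.962) was the lowest of any array. Whether it is a replicate that the authors removed after quality control is not known.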

How the results depend on the processing

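The Cartpt difference of 1.44 lay between 1.38 and 1.53 with a column left out. It was 1.56 with the slide as a block and 1.44 (SE 0.24) with the replicate block. Every KO column lay above every WT column, so no alternative run on the matrix columns could turn the sign of this difference. Under the scanner titles it was -0.37 from the processed signal and -0.27 after normexp (run on the median spot signal) and quantile normalization. The second Cartpt probe, A_51_P416152, gave -0.39 and -0.38. Those settings group the arrays by title, and each titled group holds arrays of low and of high Mbd1. The 57 probes passing became 26 with no filter, 20 with 1 probe a gene, 97 with the replicate block, 0 with the slide as a block (2123 at an unadjusted p of 0.05) and 0 under the titles in both scanner settings (1318 and 1595), and 27 to 81 with a column left out: 27 without WT 2 and 34 without WT 3. The cause was not tested. Same-numbered columns deviated in opposite directions (correlation -0.33 to -0.19) and 0 of 6 was nearest to its own number. No pairing by number was thus seen, though deviations from means of 3 columns cannot exclude one. The lists of other precursors, processing genes and receptors had 0 passing genes in all these settings. Of the other 12 precursor probes, 0 passed under the matrix alternatives. Changes of filter, probe choice, moderation and replicate block leave a difference as it is by construction. Leaving out 1 of 3 columns cannot move it by 1 residual SD. With the slide as a block, 11 probes moved by less than 1 residual SD. Penk probe A_51_P102987 moved to -0.46. The values within the slide repeat those of the slide block. Calcb had no value under the titles, its spot being left out on all 3 arrays titled KO, and the values within a slide give no count.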
